A study of Homo sapiens with 8 samples.

Results

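The 49 mitosis and G2/M genes described here encode the kinases, cyclins, kinetochore subunits, motors and spindle proteins that carry a cell from late interphase through division. They were taken by gene symbol from a fixed list, which was chosen with earlier results of these data known. All 49 were found among the 37526 gene names listed in every library. RNA was sequenced from NB4 cells, a human acute promyelocytic leukemia (APL) line that carries the PML/RARα fusion, in 4 groups of 2 libraries each. The groups were control cells without treatment (shNC), cells with short hairpin RNA against the histone demethylase gene KDM3B (shKDM3B), and the same cells given all-trans retinoic acid (ATRA; shNC_ATRA and shKDM3B_ATRA). All cells carried a stably transduced lentiviral vector with puromycin resistance; the labels call the control an empty vector, whereas the study's methods call it a scrambled hairpin. The labels give ATRA at 1 µM, where the text of the study's methods reads mM, and for 24 or 48 h without saying which applied to which library. The labels call the treated cells differentiated and the others undifferentiated, and they do not say which of the KDM3B hairpins was sequenced, nor whether the replicates were separate cultures, so p-values measure only the spread between these libraries.

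Entry into mitosis is driven by cyclin B bound to CDK1, which is held inactive until CDC25 phosphatases switch it on, and the Polo and Aurora kinases then build the spindle and attach chromosomes to it. The checkpoint kinases block the anaphase-promoting complex (APC/C) with its activator CDC20 until every kinetochore is attached, after which separase cuts cohesin and the midzone proteins direct cytokinesis. Their transcription is held down by the DREAM complex in G0 and G1 and peaks in G2 and M with the B-MYB and FOXM1 complexes, through promoter elements such as the NF-Y box and the cell cycle homology region (CHR). The mRNA level of the whole group is therefore a common readout of how many cells in a culture are cycling. ATRA makes APL cells mature toward granulocytes and leave the cycle.

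The promoters of 6 members are printed because these genes had the smallest P-values in the comparison with the most called members, ATRA against no treatment in shKDM3B cells, among members with a RefSeq promoter entry. FOXM1 would have stood among them by its P-value and had no entry. Each line gives the 150 bases before the RefSeq start (GRCh38.p14), 5′ to 3′ on the gene's strand, with matches in capitals. The NF-Y box, or CCAAT box, was searched as CCAAT and as its other-strand form ATTGG. A CHR was searched as TTTGAA with its other-strand form TTCAAA, and as the palindrome TTCGAA. In MKI67 the second CHR match overlaps a CCAAT box, in HMMR a pair of CCAAT boxes overlap and a pair of CHR matches abut, and NDC80 has no whole match in this stretch.
HMMR: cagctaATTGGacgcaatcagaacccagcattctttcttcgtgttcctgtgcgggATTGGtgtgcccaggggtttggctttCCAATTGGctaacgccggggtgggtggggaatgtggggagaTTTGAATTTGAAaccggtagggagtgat
CDK1: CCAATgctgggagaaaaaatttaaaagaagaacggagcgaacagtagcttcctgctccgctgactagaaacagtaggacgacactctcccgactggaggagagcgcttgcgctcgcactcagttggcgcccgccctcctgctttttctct
NUSAP1: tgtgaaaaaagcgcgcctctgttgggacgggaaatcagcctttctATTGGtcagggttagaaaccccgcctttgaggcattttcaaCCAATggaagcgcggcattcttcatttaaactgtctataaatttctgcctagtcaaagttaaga
NDC80: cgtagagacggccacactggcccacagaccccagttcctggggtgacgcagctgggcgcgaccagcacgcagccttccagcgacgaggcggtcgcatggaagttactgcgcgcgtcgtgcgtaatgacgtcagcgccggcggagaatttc
MKI67: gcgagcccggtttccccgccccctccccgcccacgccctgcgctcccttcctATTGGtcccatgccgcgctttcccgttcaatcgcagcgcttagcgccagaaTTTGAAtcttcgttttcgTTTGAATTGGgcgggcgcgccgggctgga
INCENP: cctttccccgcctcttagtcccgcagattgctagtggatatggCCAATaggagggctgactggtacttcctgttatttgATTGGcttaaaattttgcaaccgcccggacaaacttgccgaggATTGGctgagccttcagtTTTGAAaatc
The stretches lie at chr5:163460482-163460631 (plus strand, HMMR), chr10:60778181-60778330 (plus strand, CDK1), chr15:41332731-41332880 (plus strand, NUSAP1), chr18:2571407-2571556 (plus strand, NDC80), chr10:128126424-128126573 (minus strand, MKI67) and chr11:62123861-62124010 (plus strand, INCENP). HMMR held 4 CCAAT and 2 CHR matches in its stretch, MKI67 2 and 2, INCENP 3 and 1, NUSAP1 2 and 0, and CDK1 1 and 0. In the longer windows of the next paragraph NUSAP1 had 1 CHR match, CDK1 1 and NDC80 2, the first of which begins at -3. HMMR, CDK1, NUSAP1 and NDC80 had higher mRNA levels with ATRA in shKDM3B cells and MKI67 and INCENP lower ones (values below), so both motifs occur in promoters of genes that differed in either direction.

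RefSeq entries were found for 41 of the 49 members; FOXM1, AURKA, PBK, BIRC5, BUB3, TTK, UBE2C and TPX2 had none. In the first listed window of each gene, from 250 bases before to 50 bases after the start and on either strand, 31 of the 41 members (75.6%) had a CCAAT box, against 35.7% of 27305 genes in the table. A CHR match was found in 31 members (75.6%), against 16.6% of all genes. Both motifs stood in 25 members (61.0%), against 6.58% of all genes, and 19 members (46.3%) had at least 2 CCAAT boxes, against 11.3%. The 66 CCAAT matches of the members had a median position of -70 and the 41 CHR matches one of -26, and 30 of these CHR matches began within 50 bases of the start. These are letter matches, described without a test.

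The libraries held 9708739 to 33017787 counts on genes, of which the members took 0.731% to 0.916%. In the 4 untreated libraries and shNC_ATRA replicate 1, 8.49% to 9.62% of the uniquely aligned read pairs fell outside genes, whereas in shNC_ATRA replicate 2 and both shKDM3B_ATRA libraries 50.02%, 51.45% and 51.05% did. ATRA in shKDM3B cells therefore lies wholly across this split, and its effect and the split cannot be told apart there; in shNC cells, 1 treated library lies on each side. The files also listed different sets of gene names, 56470 in each untreated and 56609 in each treated library, so ATRA and the annotation used for counting cannot be told apart. KDM3B itself, as counts scaled to library size (CPM, with TMM factors from edgeR over the 8 libraries), stood at 186.0 and 189.2 CPM in shNC, 75.1 and 89.1 in shKDM3B, 193.9 and 120.3 in shNC_ATRA, and 52.8 and 57.1 in shKDM3B_ATRA, lower in every knockdown library than in every control library. All 6 ATRA-response markers were called higher with ATRA in shNC and in shKDM3B cells (median log2 fold changes 3.28 and 3.25). Of all genes 25.9% and 42.2% were called there. Between shKDM3B and shNC, 3 of 5 tested markers were called lower without ATRA and 4 of 6 with it (medians -0.84 and -0.92). The shares of all genes called there were 7.01% and 6.79%, and MPO was called higher in both. Of 6 promyelocyte markers, MPO and CTSG fell in both cell types, CD33 had log2 fold changes of 0.56 in shNC and 0.48 in shKDM3B (adjusted p = 0.151 and 0.0188, edgeR), PRTN3 could be tested in shNC alone and was not called, and ELANE and AZU1 were too low to test. The erythroid genes HBA1, HBA2 and HBB were at 0 in all 8 libraries.

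No member was at 0 in any library, and all 49 passed the filter on low counts in every fit. Summed over the members, the level was 8797 and 8351 CPM in the shNC libraries, 8535 and 8277 in shKDM3B, 9357 and 7764 in shNC_ATRA, and 9042 and 8170 in shKDM3B_ATRA. The groups overlapped, and the largest gap between any 2 libraries lay between the replicates of shNC_ATRA. Without MKI67, the member with the most counts, the sums ran from 7022 to 8201 CPM. In bulk RNA, fewer dividing cells and less of these mRNAs per cell cannot be told apart.

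The highest library exceeded the lowest by 1.27-fold to 3.33-fold, with a median of 1.54-fold, and by less than 2-fold in 42 of 49 members. Per kilobase of annotated exon, cyclin B1 (CCNB1) had the highest mean level over the 8 libraries at 121.7 CPM per kb, followed by the topoisomerase TOP2A at 103.7, the APC/C activator CDC20 at 87.7 and cyclin A2 (CCNA2) at 85.5. The lowest were KIF18A at 9.25, CDC25C at 4.56 and SPC25 at 0.785 CPM per kb, and the median member stood at 29.3. SPC25, a subunit of the NDC80 complex of the kinetochore, had as few as 12 counts in a library, so its values are the least precise of the group.

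**Figure D1:**
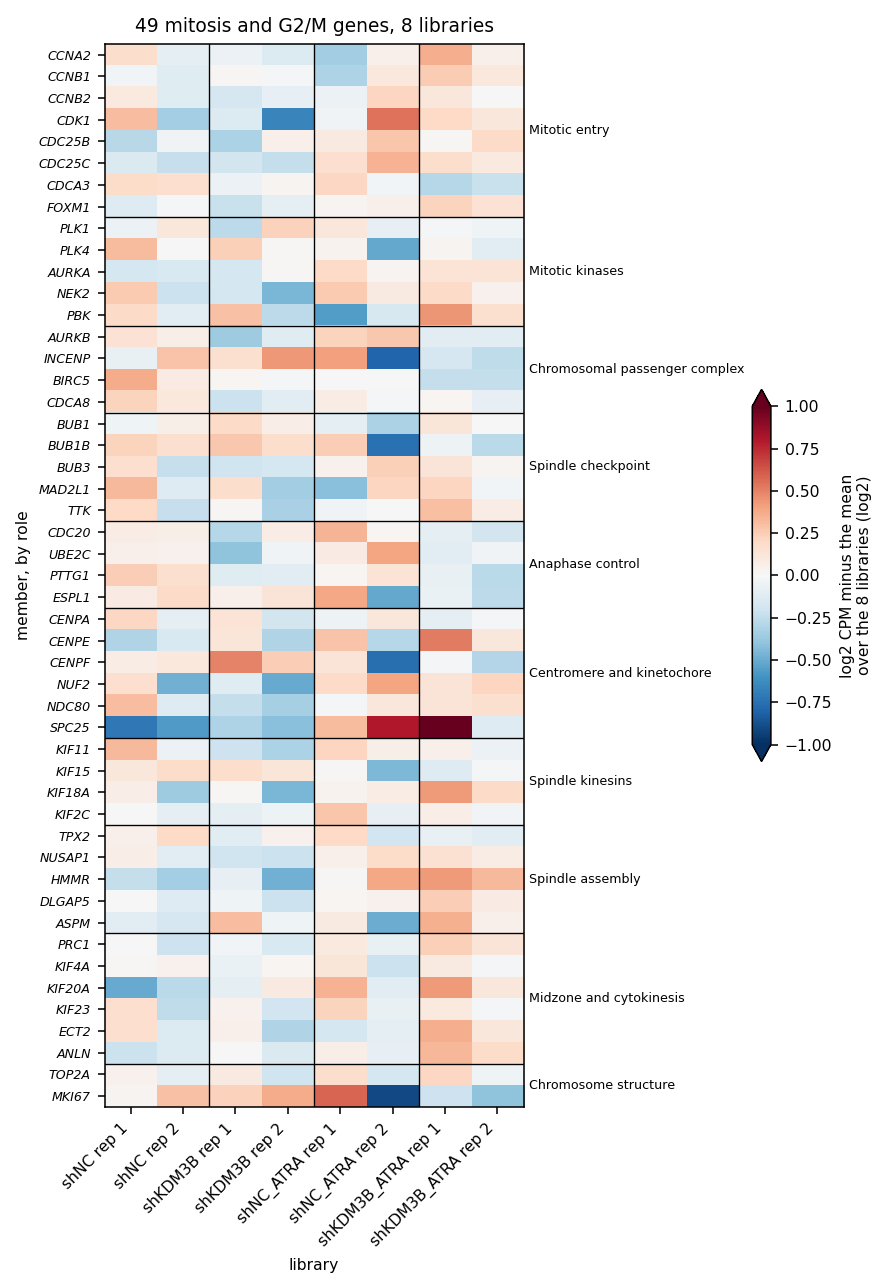
Level of the 49 members (rows, grouped by role) in the 8 libraries (columns), as log2 CPM minus the member's mean over the 8 libraries; red is above and blue below that mean, and the scale stops at 1 in each direction. No group of libraries is red or blue across the members, and shNC_ATRA replicate 2 stands lowest for MKI67, INCENP, BUB1B and CENPF.

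Whether loss of KDM3B altered the mitotic program of unstimulated cells was asked by comparing shKDM3B with shNC. A call required an unadjusted P under 0.05 from edgeR's quasi-likelihood test together with a change of at least 1.5-fold, the thresholds of the study. On this basis 0 of the 49 members were called, against 7.01% of the 13855 genes tested, and by DESeq2 also 0. At an unadjusted P under 0.05 alone stood 4 members by edgeR and 1 by DESeq2, and 0 members had an adjusted p under 0.05 (0.0217% of all genes). The median log2 fold change of the members was -0.06, against 0.00 for all genes, with 35 members below 0 and 14 above. For 31 members the 95% interval lay wholly within 1.5-fold in either direction, and for 48 within 2-fold. Leaving out shNC replicate 2 gave 4 calls, all lower (CDK1, KIF11, NDC80 and NEK2; background 11.6%), and leaving out shKDM3B replicate 1 gave 1, CDK1, also lower (background 6.76%). At an adjusted p under 0.05 stood 1 member, CDK1, without shNC replicate 2 (background 4.43%). The sign of the median turned with the library, to 0.02 without shNC replicate 1 (29 members above 0) and 0.02 without shKDM3B replicate 2 (26 above), against -0.14 and -0.13 without the other replicate of each group. An exact permutation test of 2 libraries against 2 cannot go below a two-sided p of 0.333, so the tests rest on the spread shared across genes.

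With ATRA in both arms, shKDM3B_ATRA against shNC_ATRA, PBK was the 1 member called, and it was higher; 6.79% of 14281 genes were called. No member reached an adjusted p under 0.05 by edgeR, 2 had an unadjusted P under 0.05, and the background of the adjusted rule was 0.0%. The members' median log2 fold change was -0.02, against 0.03 for all genes, and 19 members had an interval within 1.5-fold. This comparison moved with the replicate of shNC_ATRA it was set against. Without replicate 1, which leaves the 3 libraries with 50.02% or more of read pairs outside genes, 5 members were called, all higher in shKDM3B_ATRA (ASPM, CENPE, CENPF, INCENP and MKI67; background 17.0%). Without replicate 2, 1 was called higher (PBK) and 2 lower (INCENP and MKI67; background 36.4%). The count at an adjusted p under 0.05 went from 0 to 15 in both cases, 12 higher and 3 lower without replicate 1 (background 22.8%) and 6 higher and 9 lower without replicate 2 (background 48.6%). Without shKDM3B_ATRA replicate 1 or 2, 0 members were called, where the background was 0.889% and 1.88%. With 1 library left in a group, the test assumes that it varies like the others.

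ATRA in control cells was examined by comparing shNC_ATRA with shNC. SPC25 alone was called, as higher, where 25.9% of 12429 genes were called. At an adjusted p under 0.05 edgeR's test gave 0 members, against 12.9% of all genes, and 3 members, SPC25, HMMR and KIF20A, had an unadjusted P under 0.05; DESeq2 called 0 members. The median log2 fold change was 0.04 (all genes 0.02), and the interval lay within 1.5-fold for 11 members and within 2-fold for 40. Set against shNC_ATRA replicate 2 alone (without replicate 1), 2 members were called higher (HMMR and SPC25) and 6 lower (BUB1B, CENPF, ESPL1, INCENP, MKI67 and PLK4; background 38.4%). Set against replicate 1 alone, the library with 9.36% of read pairs outside genes, 1 was called higher (KIF20A) and 0 lower (background 24.7%). At an adjusted p under 0.05 stood 5 members without replicate 1 (HMMR higher and BUB1B, CENPF, INCENP and MKI67 lower, background 33.0%) and 1, KIF20A, without replicate 2 (background 17.9%). Without shNC replicate 1 or 2, 0 members were called (background 11.9% and 11.1%).

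In shKDM3B cells ATRA gave the most calls, 2 of 49 members (4.08%), HMMR and CDK1, both higher, against 42.2% of 12756 genes. At an adjusted p under 0.05 without the fold limit stood 15 members (30.6%), against 50.0% of all genes, and 12 of them were higher and 3 lower. The median log2 fold change was 0.25 (all genes 0.04), with 39 members above 0 and 10 below. The median stayed above 0 with each library left out in turn, at 0.18 to 0.29, but the calls moved. Without shKDM3B replicate 1 there were 10 (8 higher and 2 lower; background 46.1%), and without replicate 2 there was 1, CENPF, which was lower (background 39.8%). Without shKDM3B_ATRA replicate 1 there were 3 (HMMR higher, CENPF and MKI67 lower; background 37.3%), and without replicate 2 there were 5, all higher (CDK1, CENPE, HMMR, KIF18A and SPC25; background 38.3%). HMMR was called in 3 of these 4 fits. The members at an adjusted p under 0.05 numbered 26 (background 60.1%) without shKDM3B replicate 1, 16 (51.7%) without replicate 2, 1 (29.4%) without shKDM3B_ATRA replicate 1 and 4 (33.6%) without replicate 2. In one fit of the 8 libraries 0 members had an adjusted p under 0.05, against 27.4% of all genes. HMMR was the 1 member called there, and DESeq2 on the 4 libraries gave 15 members, against 44.6% of all genes. The adjusted p-values given below for ATRA in shKDM3B cells come from the fit of 4 libraries, and those of the members did not pass in that of 8.

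The difference in ATRA response between shKDM3B and shNC cells was asked with an interaction term in a fit of the 8 libraries. This called 0 members by edgeR and 0 by DESeq2, 0 had an unadjusted P under 0.05 in either, and 3.99% of 13528 genes were called (adjusted p under 0.05, 0 members and 0.0% of genes). Its intervals were wide, within 1.5-fold for 6 members and within 2-fold for 35, so smaller differences could not be detected for most. Without shNC_ATRA replicate 2 it called 4 members (CCNA2 and PBK higher, INCENP and MKI67 lower, background 17.4%, with MKI67 also past an adjusted p of 0.05, background 3.62%), without shKDM3B replicate 1 2 (ECT2 and PBK higher; background 4.11%) and without shNC replicate 2 1 (NDC80 higher; background 4.6%). The larger number of adjusted p-values under 0.05 in shKDM3B cells does not show that these cells responded differently.

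**Figure D2:**
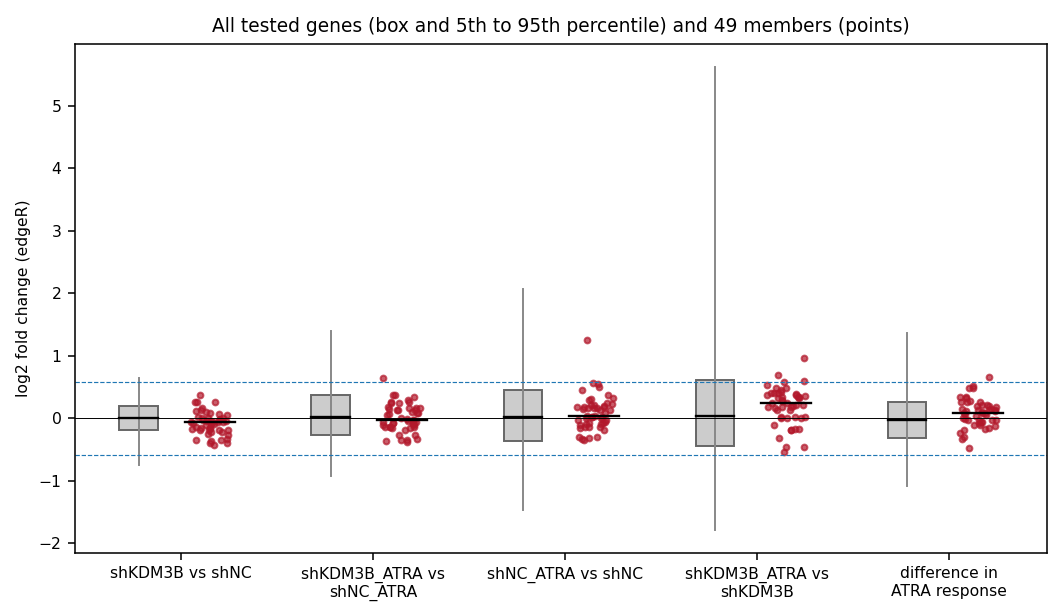
Log2 fold change of all tested genes (grey box, quartiles and median; grey line, 5th to 95th percentile) and of the 49 members (red points; black bar, median) in each of 5 comparisons, with dashed lines at 1.5-fold. The members lie mostly between the dashed lines, and their median is highest, at 0.25, for ATRA in shKDM3B cells.

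The members spread less than the other genes in each comparison, without matching for level. Between the quartiles, the log2 fold changes of members spanned 0.20 for shKDM3B against shNC (all genes 0.39), 0.29 for the same pair with ATRA (0.65), 0.30 for ATRA in shNC (0.81) and 0.37 for ATRA in shKDM3B (1.06). The difference between the 2 replicates had a standard deviation over the members of 0.24 in shNC, 0.26 in shKDM3B, 0.45 in shNC_ATRA and 0.19 in shKDM3B_ATRA on the log2 scale. The log2 fold changes between groups had one of 0.19, 0.22, 0.28 and 0.30 in the same order of comparisons.

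**Figure D3:**
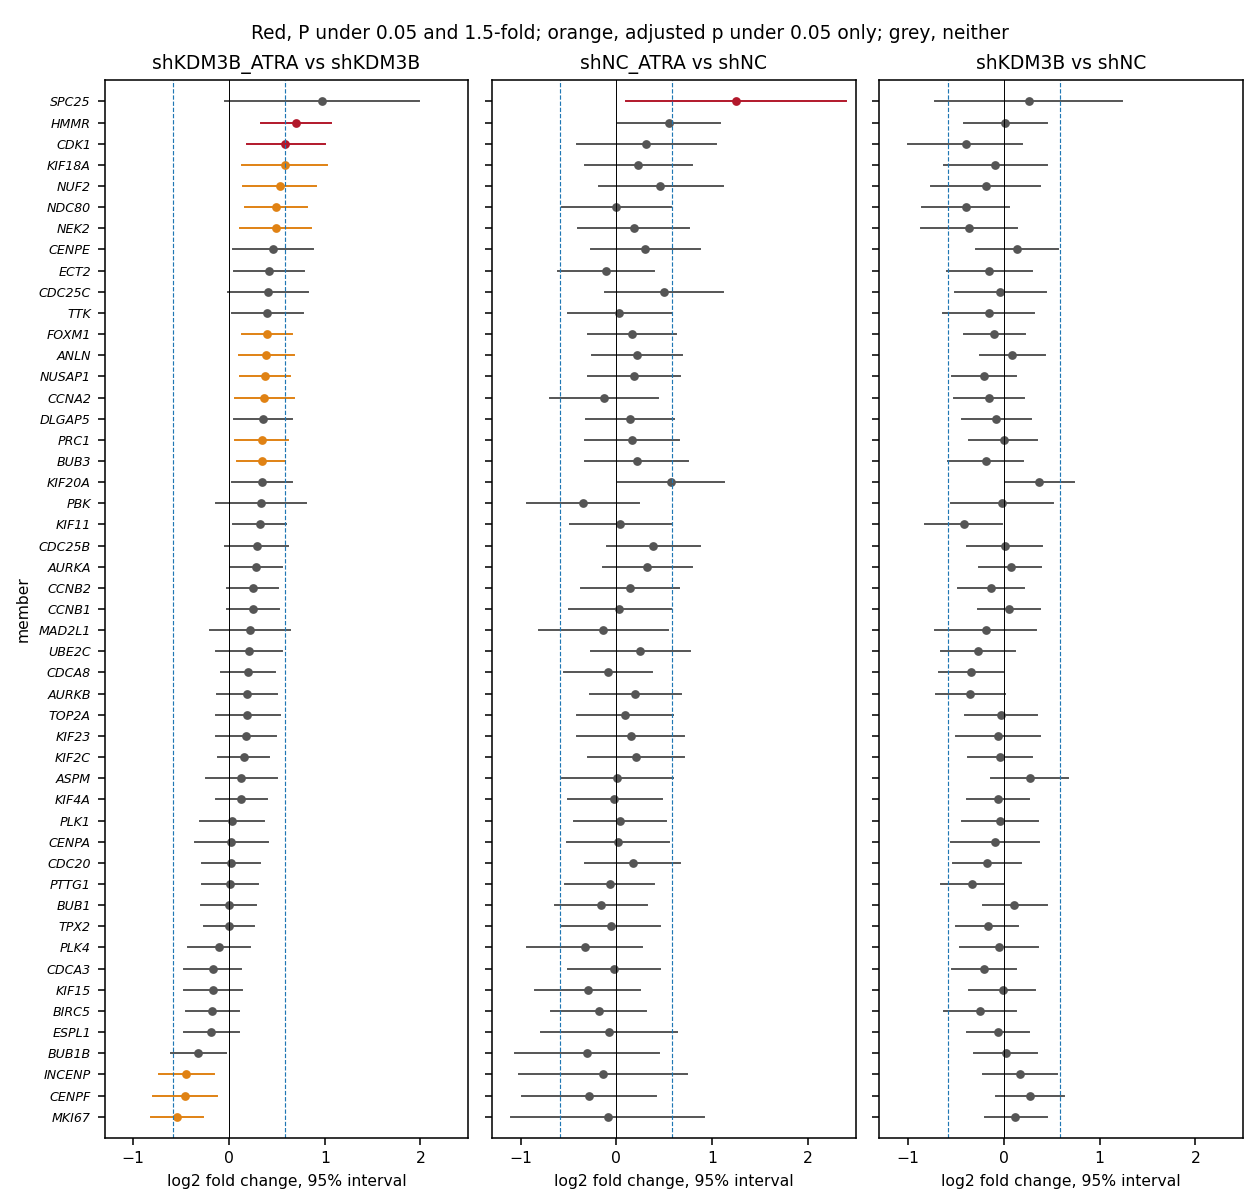
Points with 95% intervals of the log2 fold change of the 49 members for ATRA in shKDM3B cells (left), ATRA in shNC cells (middle) and the knockdown without ATRA (right), ordered by the left panel; dashed lines mark 1.5-fold, red marks members called, orange an adjusted p under 0.05 alone and grey neither. In the left panel 12 members stand above and 3 below 0 at an adjusted p under 0.05, and the intervals of the middle panel are wider.

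Among the 8 genes of mitotic entry, 1 (CDK1) rose with ATRA in shKDM3B cells and 3 (CDK1, CCNA2 and FOXM1) were higher at an adjusted p under 0.05; 0 were called in the other comparisons. CDK1, the kinase that drives mitosis, stood at 338.9 and 216.1 CPM in shNC, 249.2 and 173.3 in shKDM3B, 267.5 and 399.3 in shNC_ATRA, and 314.5 and 296.8 in shKDM3B_ATRA. Both shKDM3B_ATRA libraries lay above both shKDM3B libraries, while the shNC libraries spanned a wider range than that gap. The log2 fold change of CDK1 with ATRA was 0.59 in shKDM3B (standard error, SE, 0.18, adjusted p = 0.0216 in edgeR's quasi-likelihood test, adjusted by Benjamini-Hochberg) and 0.31 in shNC (SE 0.31, adjusted p = 0.564 by the same test). It was 1.51-fold higher, at the edge of the limit, and was not called with other scaling, without the filter on low counts, by DESeq2, in one fit of the 8 libraries, or without shKDM3B replicate 2 or shKDM3B_ATRA replicate 1. CCNA2, the cyclin of S phase and G2, was at 263.3 and 217.2 CPM in shNC, 223.9 and 211.6 in shKDM3B, 183.2 and 240.6 in shNC_ATRA, and 299.5 and 240.8 in shKDM3B_ATRA, so that the treated knockdown libraries lay above the untreated ones by a log2 fold change of 0.37 (adjusted p = 0.0468, edgeR). CCNB1 ranged from 237.5 to 350.0 CPM over the 8 libraries, with log2 fold changes between 0.03 and 0.26 in the 4 pairwise comparisons. CDCA3, a trigger of mitotic entry that marks WEE1 for degradation, was at 76.1 and 64.6 CPM in shNC_ATRA and 54.1 and 56.4 in shKDM3B_ATRA, a log2 fold change of -0.36 without overlap that did not pass the test (adjusted p = 0.533, edgeR).

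Of the 5 mitotic kinases, PBK was called with the knockdown under ATRA, and NEK2, a centrosome kinase, was higher with ATRA in shKDM3B cells at an adjusted p under 0.05. PBK, a kinase active in mitotic cells, was at 50.4 and 40.9 CPM in shNC, 54.0 and 36.9 in shKDM3B, 29.9 and 39.6 in shNC_ATRA, and 60.1 and 49.4 in shKDM3B_ATRA. Under ATRA the knockdown and control libraries did not overlap, and without ATRA they did. Its log2 fold change under ATRA was 0.64 (SE 0.21, adjusted p = 0.508, edgeR), and 0.46 and 0.85 when shNC_ATRA replicate 1 or 2 was left out. Against replicate 1 alone, which lies across the split from both shKDM3B_ATRA libraries, the change was over 1.5-fold. Against replicate 2 alone, which lies on their side, the change was under 1.5-fold. The part of the split in this value was not tested. The difference in ATRA response was 0.66 on the log2 scale (SE 0.36, adjusted p = 1.0 in edgeR's test of the interaction). PLK1, which triggers mitotic entry and centrosome maturation, ranged from 222.0 to 312.3 CPM, with its extremes in the 2 shKDM3B libraries. PLK4, the kinase of centriole duplication, was at 86.4 and 59.1 CPM in shNC_ATRA against 104.8 and 84.4 in shNC, a log2 fold change of -0.33 whose groups overlapped.

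The chromosomal passenger complex, AURKB with INCENP, survivin (BIRC5) and borealin (CDCA8), corrects faulty chromosome attachments. None of the 4 was called in any comparison of all libraries. AURKB, its kinase, was at 71.9 and 67.8 CPM in shNC, 50.9 and 60.0 in shKDM3B, 76.1 and 78.4 in shNC_ATRA, and 60.3 and 60.4 in shKDM3B_ATRA. Every knockdown library was below every control library. The log2 fold changes were -0.35 without ATRA (adjusted p = 0.514, edgeR) and -0.37 with it (adjusted p = 0.502, edgeR), both under 1.5-fold. INCENP, the scaffold of the complex, was at 144.0 and 184.8 CPM in shNC, 169.2 and 205.3 in shKDM3B, 201.3 and 87.3 in shNC_ATRA, and 135.2 and 127.2 in shKDM3B_ATRA. With ATRA in shKDM3B cells the change was -0.45 on the log2 scale (SE 0.13; adjusted p = 0.0161 by edgeR's test), and the treated libraries did not overlap the untreated ones. In control cells the treated replicates lay on opposite sides of the untreated ones. CDCA8 was at 82.1 and 87.9 CPM in shKDM3B against 111.0 and 102.6 in shNC, or -0.34 on the log2 scale (adjusted p = 0.481, edgeR).

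In the spindle checkpoint, 0 of 5 members were called, and BUB3 was higher with ATRA in shKDM3B cells at an adjusted p under 0.05. BUB3, which docks checkpoint kinases at kinetochores, was at 321.0 and 326.0 CPM in shKDM3B and 404.8 and 376.6 in shKDM3B_ATRA, without overlap. Its log2 fold change there was 0.34 (SE 0.11, adjusted p = 0.0350, edgeR), while shNC (414.3 and 315.4 CPM) and shNC_ATRA (379.8 and 436.1) overlapped. BUB1B, the BubR1 pseudokinase that inhibits CDC20, was at 180.3 and 173.1 CPM in shNC, 186.2 and 175.2 in shKDM3B, 183.6 and 92.3 in shNC_ATRA, and 149.1 and 128.1 in shKDM3B_ATRA. Its log2 fold change with ATRA was -0.32 in shKDM3B cells (adjusted p = 0.0667, edgeR) and -0.31 in shNC cells (adjusted p = 0.585, edgeR), where the replicates differed most. Over 10 alternative fits the log2 fold change ran from -0.44 to -0.22 in shKDM3B and from -0.89 to 0.08 in shNC.

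Of the 4 genes of anaphase control, 0 were called in any comparison, and all 4 had log2 fold changes below 0 with the knockdown, both without ATRA (median -0.22) and with it (median -0.29). Under ATRA the value of ESPL1, which encodes separase, was 0.35 without shNC_ATRA replicate 1 and -0.57 without replicate 2. CDC20 was at 184.3 and 182.6 CPM in shNC, 144.0 and 184.2 in shKDM3B, 221.3 and 177.0 in shNC_ATRA, and 163.8 and 153.8 in shKDM3B_ATRA. Under ATRA the knockdown libraries lay below the control libraries, by a log2 fold change of -0.34 (adjusted p = 0.574, edgeR). PTTG1, the securin that restrains separase, was at 121.1 and 114.6 CPM in shNC and 94.2 and 94.8 in shKDM3B, a log2 fold change of -0.33 (adjusted p = 0.489, edgeR) under 1.5-fold and without overlap.

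At the centromere and kinetochore, SPC25 was called with ATRA in control cells, and NDC80 and NUF2 were higher and CENPF lower with ATRA in shKDM3B cells at an adjusted p under 0.05. SPC25 was at 0.797 and 0.887 CPM in shNC, 1.06 and 0.984 in shKDM3B, 1.63 and 2.29 in shNC_ATRA, and 2.65 and 1.2 in shKDM3B_ATRA. All treated libraries lay above all untreated ones. The log2 fold change was 1.25 in shNC (SE 0.49, adjusted p = 0.15, edgeR) and 0.97 in shKDM3B (SE 0.45, adjusted p = 0.0996, edgeR). Over 10 alternative fits it ran from 0.97 to 1.48 in shNC and from 0.29 to 1.43 in shKDM3B. NDC80, the microtubule-binding subunit of the same complex, was at 57.2 and 42.2 CPM in shNC, 39.3 and 36.7 in shKDM3B, 46.0 and 50.0 in shNC_ATRA, and 50.7 and 51.6 in shKDM3B_ATRA. With ATRA in shKDM3B cells its level was higher, by 0.49 on the log2 scale (adjusted p = 0.0182, edgeR), without overlap, whereas in shNC cells the value was -0.00 and the groups overlapped. CENPF, a large protein of the outer kinetochore, was at 370.6 and 378.2 CPM in shNC, 494.3 and 417.1 in shKDM3B, 383.9 and 208.8 in shNC_ATRA, and 348.5 and 287.2 in shKDM3B_ATRA. With ATRA in shKDM3B cells its log2 fold change was -0.46 (SE 0.15, adjusted p = 0.0270, edgeR).

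Of the 4 spindle kinesins, 0 were called, and KIF18A, which dampens chromosome movements, was higher with ATRA in shKDM3B cells (log2 fold change 0.58, adjusted p = 0.0327, edgeR). KIF11, the motor that pushes spindle poles apart, was at 316.0 and 243.0 CPM in shNC, 218.8 and 203.1 in shKDM3B, 293.8 and 263.6 in shNC_ATRA, and 262.2 and 242.7 in shKDM3B_ATRA. The knockdown libraries lay below the control libraries both without and with ATRA. Its log2 fold change was -0.42 without ATRA (SE 0.17, adjusted p = 0.464, edgeR), the lowest of the members in that comparison, and -0.16 with it (adjusted p = 0.722, edgeR). With replicate number as a block, the value without ATRA was -0.41 (adjusted p = 0.0135, edgeR). In that fit 9.22% of all genes had an adjusted p under 0.05.

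The 5 genes of spindle assembly all had log2 fold changes above 0 with ATRA in shKDM3B cells, with a median of 0.36. The value of TPX2 rounded to 0.00, and its sign turned in 7 of 10 alternative fits. HMMR was called, and NUSAP1 was higher at an adjusted p under 0.05. HMMR, a microtubule-associated protein of spindle poles, was at 66.1 and 61.6 CPM in shNC, 73.6 and 56.0 in shKDM3B, 78.5 and 102.0 in shNC_ATRA, and 104.5 and 97.5 in shKDM3B_ATRA. Every treated library lay above every untreated one. The log2 fold change was 0.70 in shKDM3B (SE 0.17, adjusted p = 0.00647, edgeR) and 0.55 in shNC (SE 0.23, adjusted p = 0.168, edgeR), and in shNC 0.72 without shNC_ATRA replicate 1 (adjusted p = 0.0157, edgeR) and 0.32 without shNC_ATRA replicate 2 (adjusted p = 0.427, edgeR). Of its annotated exon bases 2.87% are overlapped by the antisense gene HMMR-AS1, and whether strand was used in counting is not given in the sources used here. NUSAP1, which bundles spindle microtubules, was at 310.8 and 275.6 CPM in shNC, 258.3 and 255.0 in shKDM3B, 307.6 and 336.1 in shNC_ATRA, and 329.2 and 311.5 in shKDM3B_ATRA, with a log2 fold change of 0.38 in the last pair (adjusted p = 0.0211, edgeR). ASPM, which sits at spindle poles, was at 236.1 and 184.5 CPM in shKDM3B against 177.3 and 169.3 in shNC, a log2 fold change of 0.27 (adjusted p = 0.694, edgeR) without overlap.

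Of the 6 genes of the midzone and cytokinesis, 0 were called, and all 6 lay above 0 with ATRA in shKDM3B cells (median log2 fold change 0.34), PRC1 and ANLN at an adjusted p under 0.05. KIF20A, a midzone motor, was at 61.5 and 72.7 CPM in shNC, 81.7 and 93.3 in shKDM3B, 111.2 and 80.9 in shNC_ATRA, and 117.7 and 94.7 in shKDM3B_ATRA. The lowest 2 libraries were those of shNC. Its log2 fold change with the knockdown was 0.37 (adjusted p = 0.484, and 0.0398 with replicate number as a block, edgeR). With ATRA its log2 fold change was 0.57 in shNC (adjusted p = 0.170, edgeR) and 0.34 in shKDM3B (adjusted p = 0.0684, edgeR), and each of these values was under 1.5-fold. With ATRA in shNC it was 0.76 and called against shNC_ATRA replicate 1 alone, and 0.32 and not called against replicate 2 alone (adjusted p = 0.338, edgeR). PRC1, the microtubule bundler of the midzone, ranged from 223.8 to 304.7 CPM, and 34.26% of its exon bases are overlapped by exons on the opposite strand. ECT2, which activates RhoA at the cleavage furrow, was at 94.5 and 99.9 CPM in shNC_ATRA and 137.0 and 115.6 in shKDM3B_ATRA, a log2 fold change of 0.37 (adjusted p = 0.521, edgeR) without overlap.

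Of the 2 genes of chromosome structure, TOP2A ranged from 572.7 to 757.1 CPM with log2 fold changes between -0.03 and 0.19, and MKI67 had the second widest range of all members after SPC25, at 2.80-fold. MKI67 encodes Ki-67, the coat of mitotic chromosomes used as a proliferation marker. It stood at 991.0 and 1187 CPM in shNC, 1140.2 and 1255 in shKDM3B, 1456 and 519.9 in shNC_ATRA, and 841.8 and 733.0 in shKDM3B_ATRA. The highest and the lowest library were the 2 replicates of shNC_ATRA. With ATRA its log2 fold change was -0.54 in shKDM3B (SE 0.12, adjusted p = 0.00438, edgeR), without overlap, and -0.09 in shNC (SE 0.43, adjusted p = 0.915, edgeR). In shNC it was -1.02 against shNC_ATRA replicate 2 alone and 0.45 against replicate 1 alone, so its direction turned with the library.

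**Figure D4:**
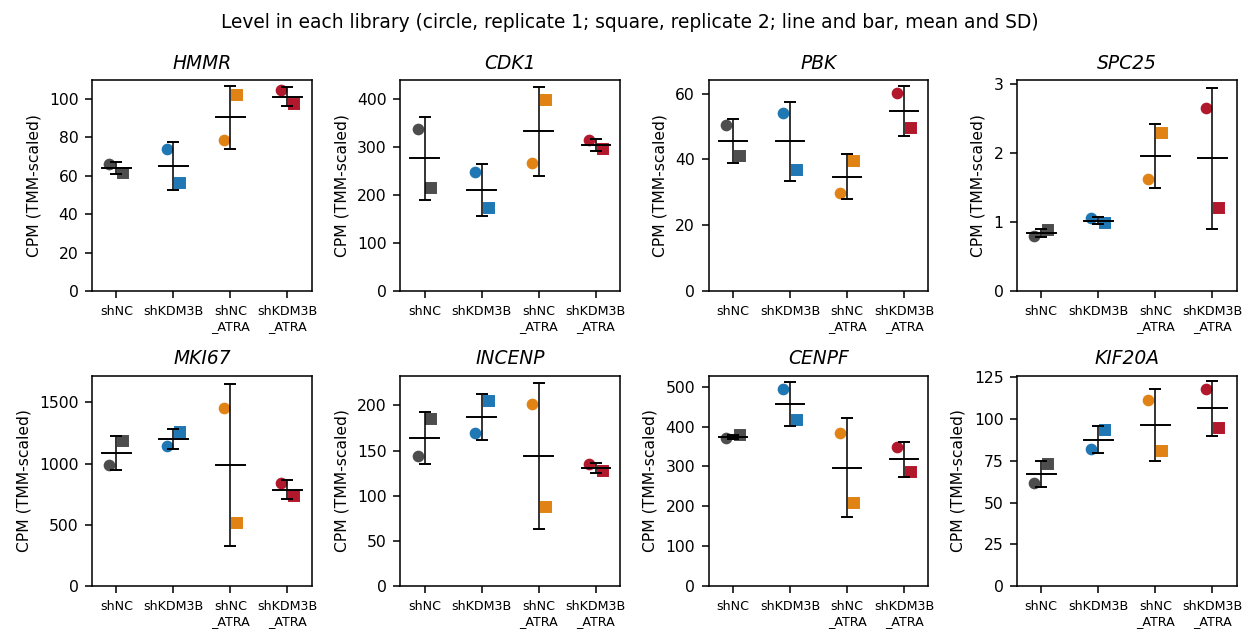
Level in CPM of 8 members in each library of the 4 groups (circles, replicate 1; squares, replicate 2; horizontal line and bar, mean and SD of the 2 libraries; axes start at 0). HMMR and SPC25 are higher in all treated than in all untreated libraries, and MKI67, INCENP and CENPF differ most between the 2 shNC_ATRA replicates.

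The share of read pairs outside genes moved with some of these levels. In 12 of 49 members (24.5%) the 3 libraries with 50.02% or more outside genes did not overlap the other 5, against 34.4% of 13528 genes. Higher in the 3 were CCNB1, DLGAP5, FOXM1, HMMR, KIF18A and NUSAP1, and lower were BUB1B, CENPF, ESPL1, INCENP, KIF15 and MKI67. MKI67 was at 519.9 to 841.8 CPM in the 3 and 991.0 to 1456 in the 5, and HMMR at 97.5 to 104.5 in the 3 and 56.0 to 78.5 in the 5. Since these 3 libraries are all treated, the split and ATRA cannot be told apart in shKDM3B cells, and the part of the split in these values was not tested.

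Transcript length and base composition moved with some of the differences. The longest protein-coding transcript of a member ran from 914 bases (UBE2C) to 12716 (MKI67), and its GC content from 35.4% (CENPE) to 59.1% (CDC25B). Across the 49 members, Spearman's correlation of the difference between the shNC_ATRA replicates with length was 0.57, and that of the difference between the shKDM3B replicates with GC content was -0.86. For the log2 fold change of shKDM3B_ATRA against shNC_ATRA the correlation with GC content was -0.62, and for ATRA in shKDM3B it was -0.50. For shKDM3B against shNC and for ATRA in shNC it was -0.09 and -0.03, and for the difference in ATRA response -0.59. For the replicate differences of shNC, shNC_ATRA and shKDM3B_ATRA the correlation with GC content was -0.50, 0.22 and -0.49. The correlations of the 4 pairwise log2 fold changes with length ran from -0.31 to 0.39. The genes share libraries and are not independent replicates, so no p is given, and the part of length and GC content in the fold changes was not tested.

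The other genes of mitosis and its control were taken as 7 lists with 108 genes. With the knockdown 3 of 107 tested were called (NCAPH and E2F5 higher, KIFC1 lower, 2.8% against 7.01% of all genes), and under ATRA 2 of 105 (CENPI higher, CDKN1A lower, 1.9% against 6.79%). KIFC1, a minus-end spindle motor, was at 0.897 and 4.86 CPM in shNC and 0.859 and 0.381 in shKDM3B, so its call rests on shNC replicate 2. ATRA called 5 higher and 2 lower of 107 in shNC (6.54%, against 25.9% of all genes), and 16 higher and 4 lower of 105 in shKDM3B (19.0%, against 42.2% of all genes), with a median log2 fold change of 0.15. Among other kinetochore subunits, 7 of 29 tested rose with ATRA in shKDM3B cells, such as CENPP (log2 fold change 1.00, adjusted p = 0.000349, edgeR) and SKA2 (0.90, adjusted p = 0.00166, edgeR), and PMF1 fell. CEP55, which recruits the abscission machinery to the midbody, was at 95.8 and 95 CPM in shNC, 80.7 and 78.6 in shKDM3B, 142.0 and 173.4 in shNC_ATRA, and 142.8 and 138.8 in shKDM3B_ATRA. It rose with ATRA in shNC (log2 fold change 0.77, adjusted p = 0.0551, edgeR) and in shKDM3B (0.89, adjusted p = 0.000304, edgeR), and every treated library was above every untreated one. MYBL2, the B-MYB factor that activates many of the members, was at 436.4 and 508.7 CPM in shNC, 292.1 and 447.3 in shKDM3B, 327.8 and 235.9 in shNC_ATRA, and 203.1 and 238.7 in shKDM3B_ATRA. It fell with ATRA in both cell types, by 0.70 in shNC (adjusted p = 0.103, edgeR) and 0.67 in shKDM3B (adjusted p = 0.0123, edgeR) on the log2 scale.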

How the data were processed

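RNA-seq of 8 NB4 libraries (TruSeq, total RNA) was aligned by the authors with HISAT2 and summed per gene with HTSeq, which left deposited raw read pair counts for each gene name; the submitters' processing notes also name Picard, SAMtools, DESeq2 and hg38. The study's methods name an hg38 RefSeq refFlat annotation for the counting, and the strand setting is not given in the sources used here. Per library, 9708739 to 33017787 counts fell on genes, and the 5 summary lines at the end of each file (read pairs outside genes, ambiguous and the like) were left out of library sizes and tests. Interval widths cover the spread between libraries only.

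CPM values used the 37526 gene names present in every file. Each fit used the names listed for all of its own libraries. Untreated files listed 56470 names and treated files 56609, so the background shares of the comparisons rest on different sets of genes. Each pair of groups was fitted on its own 4 libraries with edgeR 4.0.16 (limma 3.58.1, R 4.3.3) using TMM factors, filterByExpr and the quasi-likelihood F test with Benjamini-Hochberg adjustment over all genes of the fit; the interaction used all 8. Calls followed the study's limits, an unadjusted P under 0.05 and 1.5-fold. The members and lists were chosen with earlier results of these data known. Named members were those called, the most abundant of each role, and the 3 with the largest and 3 with the smallest log2 fold change in each comparison; other members appear where a count or an adjusted p is given, and were chosen after their values were seen. Replicates differed beyond sampling noise in every group (chi-square per degree of freedom 6.11 to 81.52). On simulated counts with 200 genes changed 3-fold, the test called 96.0% (shKDM3B against shNC), 59.5% (the same with ATRA), 89.5% (ATRA in shNC) and 97.5% (ATRA in shKDM3B) of them. Of the unchanged genes it called 2.97%, 4.31%, 4.67% and 2.11% in the same order. Changes smaller than 3-fold were not simulated, so recovery near the 1.5-fold limit is not known. Alternatives were DESeq2 1.42.0, its size factors, library size alone, no filter, one fit of 8 libraries, a replicate block, each library left out, and members without exons overlapped on the opposite strand. Gene lengths are from GENCODE on GRCh38 and promoters from RefSeq (GRCh38.p14). Tables and figures were made in matplotlib 3.10.9, numpy 2.4.6 and pandas 2.3.3 under Python 3.11.15.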

Additional observations from a re-analysis of the deposited data

Results flagged for a closer look

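The share of uniquely aligned read pairs that fell outside genes, a measure that no comparison used, stood far apart in 3 treated libraries. It was 50.02% in shNC_ATRA replicate 2, 51.45% in shKDM3B_ATRA replicate 1 and 51.05% in shKDM3B_ATRA replicate 2, against 8.49% to 9.62% in the 4 untreated libraries and 9.36% in shNC_ATRA replicate 1.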

How the results depend on the processing

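The number of members called changed under these alternatives. With ATRA in both arms, shKDM3B against shNC gave 0 with a replicate block and 0 when the adjusted p had to pass. ATRA in shNC gave 0 without the low-count filter, 0 by DESeq2, 0 with a replicate block and 0 by the adjusted p. ATRA in shKDM3B gave 1 with DESeq2's size factors, 1 by DESeq2, 1 in one fit of the 8 libraries, and 1 of 35 among members without opposite-strand exon overlap. The interaction gave 1 (PBK) without the filter. When single libraries were dropped, the counts ran from 0 to 4 for shKDM3B against shNC, 0 to 5 for the same with ATRA, 0 to 8 for ATRA in shNC, 1 to 10 for ATRA in shKDM3B and 0 to 4 for the interaction. The other alternatives kept each count within 1.5 times. The labels do not say whether same-numbered replicates were handled together. The correlation of their deviations over 11690 genes was 0.366, 0.018, -0.06 and 0.179 in the 4 pairwise comparisons, and 0.638, -0.005, -0.523 and 0.308 over the members. With this replicate block the counts were 0 and 3 for shKDM3B against shNC and ATRA in shKDM3B, and for shKDM3B against shNC 3 members (CDK1, KIF11 with adjusted p = 0.0135 and KIF20A with adjusted p = 0.0398, edgeR) passed an adjusted p of 0.05 in place of 0, against 9.22% of all genes. The 15 members at an adjusted p under 0.05 with ATRA in shKDM3B became 13 with DESeq2's size factors (50.2% of all genes), 10 with library size alone (50.0%), 17 without the filter (37.2%), 25 with the replicate block (57.7% of all genes) and 0 in one fit of the 8 libraries. The sign of the log2 fold change turned under some alternative in 24, 24, 25 and 8 of 49 members in the pairwise comparisons and in 29 for the interaction. With 2 libraries a group, the 95% interval lay within 1.5-fold for 31 of 49 members in shKDM3B against shNC and for 6 in the interaction, and SPC25 had as few as 12 counts.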

Other observations

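Genes that act before mitosis were taken as a list of 31 genes of DNA replication and the G1/S transition. Of these, 2 were called with ATRA in shNC and 3 in shKDM3B cells, all lower, against 25.9% and 42.2% of all genes called in either direction, and 15 were lower and 1 higher at an adjusted p under 0.05 in shKDM3B, where 50.0% of all genes passed that rule. The median log2 fold change with ATRA was -0.27 in shNC and -0.34 in shKDM3B cells, against 0.04 and 0.25 for the mitosis and G2/M genes; the difference between the lists was not tested. MCM4, a subunit of the replicative helicase, was at 533.0 and 560.6 CPM in shNC, 536.0 and 573.1 in shKDM3B, 356.9 and 270.0 in shNC_ATRA, and 325.9 and 297.6 in shKDM3B_ATRA. All treated libraries lay below all untreated ones, and MCM4 fell with ATRA by 0.75 in shNC (adjusted p = 0.068, edgeR) and by 0.77 in shKDM3B (adjusted p = 0.000514, edgeR) on the log2 scale. On the same scale E2F1, the activator of S phase genes, fell by 0.69 in shNC (adjusted p = 0.0969, edgeR). The helicase subunit gene GINS2 fell by 0.62 and cyclin E1 (CCNE1) by 0.70 in shKDM3B cells (adjusted p = 0.00425 and 0.00886, edgeR).

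CDKN1A, the p21 inhibitor of cyclin-dependent kinases, had 0.548 and 0.634 CPM in shNC, 0.354 and 0.666 in shKDM3B, 6.83 and 7.31 in shNC_ATRA, and 0.954 and 1.4 in shKDM3B_ATRA. Both shNC_ATRA libraries stood above all others. The log2 fold change with ATRA was 3.61 in shNC (adjusted p = 0.0021, edgeR) and 1.22 in shKDM3B (adjusted p = 0.0673, edgeR). The difference between these responses was -2.39 (SE 0.61), past an unadjusted P of 0.05 and not past adjustment (adjusted p = 1.0, edgeR), on counts of 7 to 113 per library. The replicates of shNC_ATRA, which lie on either side of the split in read pairs outside genes, were at 6.83 and 7.31 CPM. The part of the split in the difference was not tested.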
